A study of Mus musculus with 4 samples.

Results

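The regions described here lay at the ends of protein-coding genes and were open in the WT libraries alone: each had an ATAC-seq peak in the lists of WT-1 and WT-2, none in those of KO-1 and KO-2, and a midpoint within 1 kb of either end of a gene interval. They were chosen by the presence or absence of a peak in the 4 deposited peak lists, so the difference between KO and WT libraries at these regions is a description and carries no test. There were 646 of them among 97394 merged regions, and among 14279 regions at gene ends, and they lay within 1 kb of an end of 695 genes.

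The study measured open chromatin by ATAC-seq, in which a transposase cuts exposed DNA and adds sequencing adapters, in mouse CD4 T cells that carry the SMARTA T cell receptor for the GP61 peptide. The KO cells were labelled TOX KO, were Ly5.1+ and Ly5.2-, and were sorted for low PD1, LAG3 and CD39 (2 libraries, KO-1 and KO-2). The WT cells were labelled TOX WT, were positive for both Ly5.1 and Ly5.2, and were sorted for high PD1, LAG3 and CD39 (2 libraries, WT-1 and WT-2). Donor cells of either genotype had been naive at transfer, the recipients were B16-GP61 melanoma bearers that had received cytoxan, and cells came from the tumor-draining lymph node 11 days after transfer. Genotype, congenic marker and sort gate changed together and cannot be told apart. The labels do not say whether the 2 libraries of a genotype came from separate animals, and the sources used here give neither the age of the mice nor the deleted part of Tox, the promoter of any Cre behind the deletion, or the number of reads.

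TOX is an HMG-box protein of the nucleus, known for its part in T cell development and in exhausted T cells. The start of a gene is where its promoter lies: promoters of widely used genes are mostly rich in CpG and open in many cell types, whereas promoters of lineage genes are often poor in CpG and open only where the lineage factors act. Antigen-presenting cells of a lymph node, such as B cells, dendritic cells and macrophages, open sets of such promoters that T cells keep closed, among them those of the B cell receptor chains and of the Fc receptors.

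The promoters of 5 of the genes are shown because their WT-only regions covered them, and because they span the B cell, myeloid, shared signalling and T cell effector genes and a range of CpG content. Each line gives the 300 bases from 250 before to 50 after a RefSeq gene start (GRCm38.p6), read in the direction of transcription. Fcer2a lies at chr8:3694125-3694424 on the minus strand, Cd79a at chr7:24897247-24897546 on the plus strand, Ly86 at chr13:37345095-37345394 on the plus strand, Syk at chr13:52583187-52583486 on the plus strand and Ccl3 at chr11:83649329-83649628 on the minus strand. Capitals mark matches, on either strand, to the letters GAGGAA (PU.1), CCCNNGGG (EBF), TGTGGT (RUNX), GAAANNGAA (IRF), TGANTCA (AP-1) and ATTTGCAT (OCT). A match is a run of letters and not a shown binding site.

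Fcer2a: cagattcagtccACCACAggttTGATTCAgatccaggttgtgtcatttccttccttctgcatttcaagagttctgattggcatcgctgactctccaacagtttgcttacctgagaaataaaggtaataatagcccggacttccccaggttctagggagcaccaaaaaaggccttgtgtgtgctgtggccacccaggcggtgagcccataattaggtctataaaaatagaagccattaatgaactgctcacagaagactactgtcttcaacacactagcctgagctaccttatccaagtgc
Cd79a: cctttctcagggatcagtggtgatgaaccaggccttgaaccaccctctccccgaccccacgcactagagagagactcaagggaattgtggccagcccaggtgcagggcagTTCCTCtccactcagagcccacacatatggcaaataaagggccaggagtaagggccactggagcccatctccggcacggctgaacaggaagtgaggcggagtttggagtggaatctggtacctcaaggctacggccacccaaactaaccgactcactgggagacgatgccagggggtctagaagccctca
Ly86: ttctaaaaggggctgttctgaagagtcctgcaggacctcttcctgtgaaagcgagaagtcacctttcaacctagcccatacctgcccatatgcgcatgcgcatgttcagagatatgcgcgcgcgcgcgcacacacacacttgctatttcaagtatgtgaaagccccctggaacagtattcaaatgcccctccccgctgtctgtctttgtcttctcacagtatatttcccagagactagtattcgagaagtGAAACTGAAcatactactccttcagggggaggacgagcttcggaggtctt
Syk: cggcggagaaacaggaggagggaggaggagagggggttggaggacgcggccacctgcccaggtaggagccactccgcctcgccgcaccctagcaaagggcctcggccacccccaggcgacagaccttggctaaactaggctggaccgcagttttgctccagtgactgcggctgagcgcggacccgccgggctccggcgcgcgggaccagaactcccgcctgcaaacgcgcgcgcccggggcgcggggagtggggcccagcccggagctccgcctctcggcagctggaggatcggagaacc
Ccl3: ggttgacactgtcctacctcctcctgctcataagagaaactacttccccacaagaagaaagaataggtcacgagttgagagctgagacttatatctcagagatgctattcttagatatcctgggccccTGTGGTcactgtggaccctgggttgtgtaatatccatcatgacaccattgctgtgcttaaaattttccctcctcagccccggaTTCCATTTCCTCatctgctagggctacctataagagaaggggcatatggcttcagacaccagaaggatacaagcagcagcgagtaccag

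The window of Fcer2a, the low-affinity IgE receptor CD23 of B cells, held 3 CpG dinucleotides, 1 RUNX match and 1 AP-1 match. That of Cd79a, a signalling chain of the B cell receptor, held 8 CpG and 1 PU.1 match. That of Ly86, whose product pairs with the Toll-like receptor homolog CD180, held 13 CpG and 1 IRF match. The Syk window held 31 CpG and none of the 6 motifs, and the Ccl3 window held 3 CpG with 1 match each for PU.1, RUNX and IRF. The 5 windows thus ran from CpG-poor to CpG-rich, and the WT-only region covered all 300 bases of each.

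WT-only regions made up a smaller share of the regions at gene ends than of all merged regions. At gene ends 4.52% of regions were WT-only and 0.791% (113 regions) were KO-only. Over all merged regions these shares were 8.8% and 1.78%. Regions with a peak in every library made up 67.7% of the regions at gene ends and 27.6% of all merged regions. The shares are of called regions and not of genome length. Gene-end regions with a peak numbered 10612 in KO-1 and 11532 in KO-2, against 11803 in WT-1 and 12145 in WT-2. WT-only outnumbered KO-only gene-end regions by a ratio of 5.72, which moved when either KO library was left out; that choice also means that a peak in the other KO library alone makes a region KO-only. Without KO-1, the shortest list, the WT-only regions numbered 769 and the KO-only ones 893, a ratio of 0.861. Without KO-2 the numbers were 1213 and 582, a ratio of 2.08. The ratio also moved with the threshold. With the 20000 strongest peaks of each list the numbers were 237 and 102, a ratio of 2.32. At a deposited −log10 q of at least 5 and 10 it was 8.13 and 14.6. The B cell genes described next had 20 WT-only and 0 KO-only gene-end regions both with and without KO-1, 23 and 0 without KO-2, 26 and 0 without WT-1, and 25 and 0 without WT-2.

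B cell genes made up 20 of the 646 regions (3.1%), at 15 of the 24 genes of the list. The same genes held 0.266% of all gene-end regions, 0.0827% of the gene-end regions with a peak in every library and none of the 113 KO-only ones. With 0.791% of all gene-end regions KO-only, lists of this size would hold few or none. A count of 0 KO-only regions is near that share, here and in the lists below. Of the 38 gene-end regions at B cell genes, 20 (52.6%) were WT-only, against the 4.52% of all gene-end regions. Peaks stood at 8 of the 38 in KO-1 and 11 in KO-2, against 32 in WT-1 and 37 in WT-2, and the KO and WT ranges did not overlap, as they did not over all gene-end regions. The sorts took CD4 T cells in both groups, so neither gate was meant to hold B cells; the part of other cells in these peaks was not tested. In bulk libraries, fewer cells of a type and less open DNA per cell cannot be told apart.

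**Figure D1:**
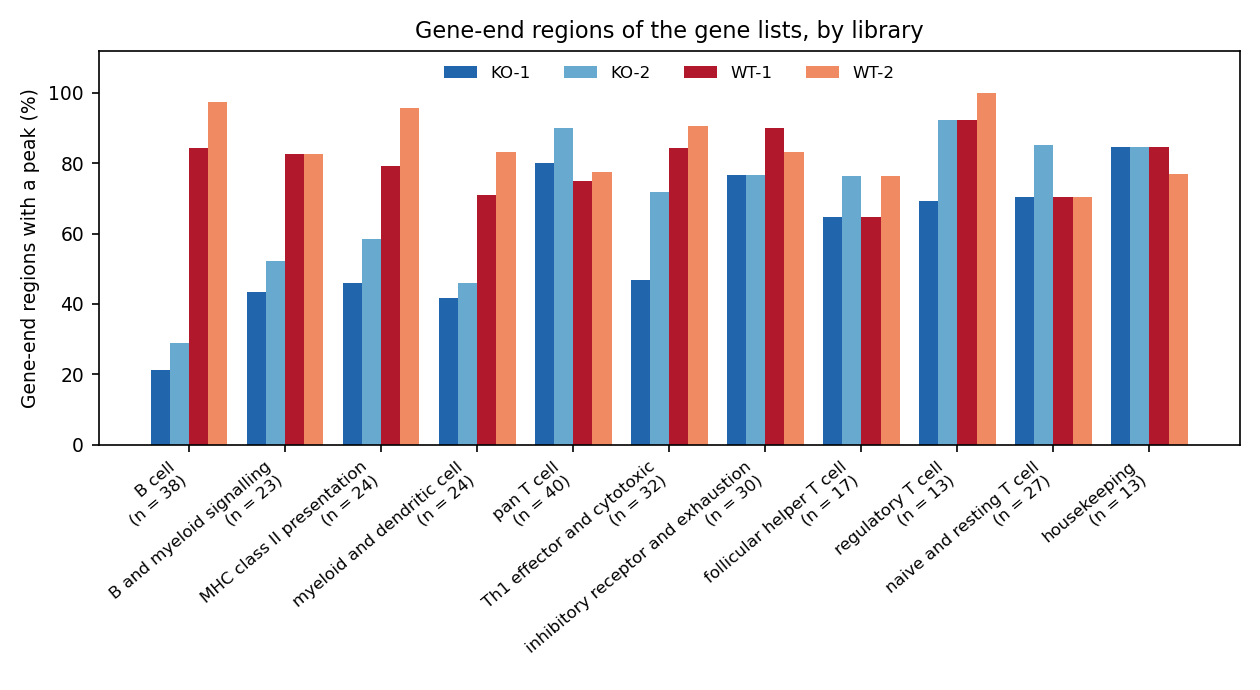
Share of the gene-end regions of each gene list (y axis, percent; n is the number of regions) with a peak in each KO and WT library (bars), for lists with 10 or more such regions. At B cell genes the KO bars stand at 8 and 11 of 38 regions and the WT bars at 32 and 37. At pan T cell genes the KO bars stand at 32 and 36 of 40 and the WT bars at 30 and 31. The bars include the WT-only regions (20 of the 38 at B cell genes), whose pattern was set by the rule.

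The strongest WT-only regions of the B cell list stood at surface receptor and adaptor genes. Fold enrichment below is the authors' own value for a peak against the background of its library, and a percentile is the share of peaks in the same list with a fold at or below it. Ms4a1, which encodes CD20, had no KO peak, with WT-1 and WT-2 folds of 10.9 and 12.0, on the percentile scale 88.0 and 90.5 (chromosome 19, 11265845 to 11266827). Fcer2a, whose promoter is shown above, had no KO peak, with WT-1 and WT-2 folds of 9.02 and 10.1. The nearest KO peak lay 26180 bp from the Ms4a1 region and 16648 bp from the Fcer2a region. Cd79a had no KO peak, with WT-1 and WT-2 folds of 8.61 and 8.88, and the nearest KO peak lay 4192 bp away. Bank1, an adaptor of B cell receptor signalling, had no KO peak, with WT-1 and WT-2 folds of 8.21 and 10.6, and Blnk, another such adaptor, had folds of 7.05 and 8.31 in the same order. The 20 regions of the list reached from the 1.37 to the 88.0 percentile in WT-1, so weak peaks were among them as well.

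B lineage transcription factors and inhibitory receptors followed with lower folds. Ebf1, a factor that sets up the B lineage, had a WT-only region at each end: folds were 2.40 in WT-1 and 2.80 in WT-2 at its start, and 5.35 and 6.08 at its far end. Its start also had another region, with a peak in every library and KO-1 and KO-2 folds of 2.99 and 7.98, against 8.77 in WT-1 and 8.02 in WT-2. Its start was therefore not closed in the KO libraries. Of 28 regions within 5 kb of the Ebf1 gene body, 13 were WT-only and 0 KO-only, these end regions included. Pax5, the factor that keeps B cell identity, had folds of 5.00 and 5.48 in WT-1 and WT-2 at its start and 8 WT-only regions against 1 KO-only region of 23. Spib, an ETS factor of B cells and plasmacytoid dendritic cells, had weak WT-only regions at both ends, with folds from 2.27 to 2.94. Cd22 and Cd72, inhibitory receptors of B cells, had 2 WT-only regions each at their starts, with folds from 2.83 to 7.48 over WT-1 and WT-2. Cd180, a Toll-like receptor homolog of B cells, had 2 as well, with folds from 2.56 to 4.39. Vpreb3 had a region at its far end with folds of 5.88 and 6.36 in WT-1 and WT-2, and Tnfrsf13b, the receptor TACI, had folds of 6.58 and 5.28. Pax5 and Blk, which also held a WT-only region, were named after their values were seen.

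Some B cell genes had an open end in every library. Such regions stood at Bcl11a, Btk, Cr2, Ebf1, Pou2af1, Ralgps2 and Tnfrsf13c. The one counted for Btk lay at its far end and was nearest to the start of Timm8a1. The region at the start of Btk had a peak in WT-2 alone. At the start of Cr2, the complement receptor CD21, folds were 2.78 in KO-1 and 3.43 in KO-2, against 14.6 in WT-1 and 14.5 in WT-2. At the start of Pou2af1, a coactivator also used by follicular helper T cells, they were 9.77 in KO-1 and 11.2 in KO-2, against 8.66 in WT-1 and 9.01 in WT-2. A peak in every list hence went with a low KO fold at Cr2 and with none of that order at Pou2af1. Both genes were picked after their values were seen, and folds of different lists were not tested against each other.

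**Figure D2:**
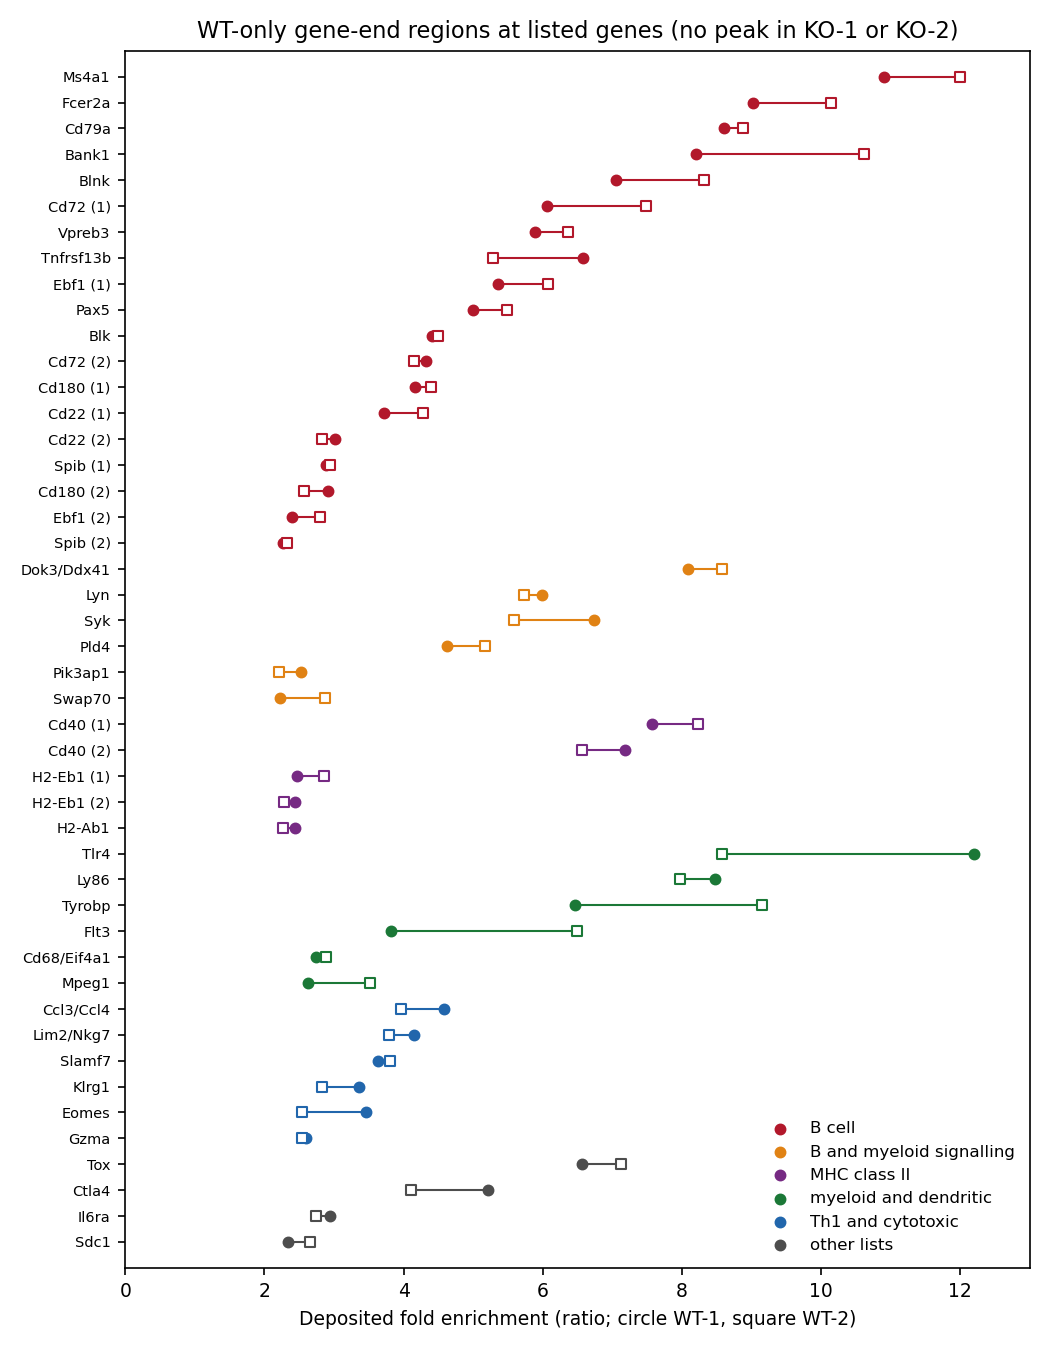
Deposited fold enrichment (x axis, ratio) in WT-1 (circles) and WT-2 (open squares) of 46 of the 49 WT-only gene-end regions at genes of any list (rows, numbered where a gene has 2 regions, with a slash where 2 genes share a region). None had a peak in KO-1 or KO-2; Ms4a1 at 10.9 and 12.0 and Tlr4 at 12.2 and 8.58 stand highest.

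Genes of receptor signalling that B cells and myeloid cells share held 8 WT-only regions and 0 KO-only regions of 23 (34.8% WT-only, against 4.52% of all gene-end regions). As many, 8 of the 23, had a peak in every library, so the list was mixed. Peaks stood at 10 of the 23 in KO-1 and 12 in KO-2, against 19 in WT-1 and 19 in WT-2. Syk, a kinase next to the B cell receptor and Fc receptors, had WT-1 and WT-2 folds of 6.74 and 5.59 in a region of 1373 bp over its start. Lyn, a Src family kinase, had folds of 5.99 and 5.73 in WT-1 and WT-2. Dok3, an adaptor that dampens such signals, had folds of 8.08 and 8.57, and a KO peak lay 378 bp away; the region was also near Ddx41. Pld4 (4.63 and 5.17), Swap70 (2.23 and 2.88) and Pik3ap1 (2.53 and 2.20) were further genes of this list, with folds given for WT-1 and then WT-2.

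Myeloid and dendritic cell genes held 6 WT-only regions, 0.929% of the 646, and 0 KO-only regions of 24. The WT-only share of the 24 was 25%, against 4.52% of all gene-end regions. Peaks stood at 10 of the 24 in KO-1 and 11 in KO-2, against 17 in WT-1 and 20 in WT-2. Tlr4, the receptor for lipopolysaccharide, had the largest fold of the 646 in WT-1, with 12.2 there and 8.58 in WT-2, in a region of 1444 bp. Ly86 had folds of 8.48 and 7.97 in WT-1 and WT-2 over its start, and 4 WT-only regions of 7 within 5 kb of the gene. Tyrobp, the adaptor DAP12 of natural killer and myeloid cells, had folds of 6.46 and 9.16. Flt3, the growth factor receptor of dendritic cells, had 3.82 and 6.50 near its far end. Mpeg1 (2.62 and 3.51) and Cd68 (2.74 and 2.89), both macrophage genes, had weak peaks, and the Cd68 region also lay at Eif4a1. The defining factor Spi1 was open in every library, with KO-1 and KO-2 folds of 5.69 and 10.4, against 6.55 in WT-1 and 6.39 in WT-2, so the list was mixed. Of the 38 genes of the list 17 had any gene-end region, and Csf1r, Adgre1, Lyz2 and Itgam were not among them, so they could hold none of the 646.

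At the genes of MHC class II presentation, 5 of 24 gene-end regions were WT-only (20.8%, against 4.52% of all gene-end regions), 0 were KO-only and 10 had a peak in every library. Cd40, a receptor by which antigen-presenting cells receive T cell help, had 2 of the 5, with folds of 7.57 and 8.23 and of 7.19 and 6.57 in WT-1 and WT-2. The others were weak regions at H2-Eb1 and H2-Ab1, with folds from 2.26 to 2.85, beside larger regions of the same genes that were open in every library. Over the start of H2-Aa, folds were 7.15 in KO-1 and 10.2 in KO-2, against 6.98 in WT-1 and 6.71 in WT-2. H2-Aa was thus open at its start in the KO libraries too. H2-Eb2, a class II gene outside the list, was different, with no KO peak at its start and WT-1 and WT-2 folds of 11.3 and 9.98.

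Most gene-end regions of pan T cell genes had a peak in every library, as did most of all gene-end regions (67.7%). Of the 40 gene-end regions at 25 of these 27 genes, 0 were WT-only, 2 were KO-only and 26 had a peak in every library. Leaving out WT-2 gave 3 WT-only regions at these genes, and leaving out KO-2 gave 2. The KO-only ones were at Cd3d, with KO-1 and KO-2 folds of 3.31 and 2.50, and at Tcf7, with 2.40 and 2.75. Peaks stood at 32 of the 40 in KO-1 and 36 in KO-2, against 30 in WT-1 and 31 in WT-2. Both the regulatory T cell list (13 gene-end regions) and the naive and resting list (27) also held 0 WT-only regions. With 4.52% of all gene-end regions WT-only, lists of this size would hold few or none, and a count of 0 is near that share. Further, the naive and resting list held 1 KO-only region. The follicular helper list held 1 KO-only region, at Cd40lg. Housekeeping genes (13), natural killer genes (3), CD8 genes (1), melanocyte and B16 genes (4), erythroid genes (3) and stromal genes (2) held 0 of either kind.

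The Th1 and cytotoxic list had 6 of 32 gene-end regions WT-only (18.8%, against 4.52% of all gene-end regions) and 0 KO-only. Peaks stood at 15 of the 32 in KO-1 and 23 in KO-2, against 27 in WT-1 and 29 in WT-2. One region served the chemokine genes Ccl3 and Ccl4, with WT-1 and WT-2 folds of 4.59 and 3.96 over the Ccl3 promoter shown above. The granule gene Gzma had folds of 2.60 and 2.54, Nkg7, which acts in granule release, 4.16 and 3.79, and the receptors Slamf7 and Klrg1 3.63 and 3.81 and 3.36 and 2.83, each in WT-1 and WT-2. Eomes, a T-box factor of effector and memory cells, had 3.46 and 2.55, with a KO peak 184 bp away and another region at its start open in every library. The Nkg7 region was nearest to the far end of Lim2, with a KO peak 152 bp away. Another region, nearest to the start of Nkg7, had no peak in KO-1 and a fold of 3.52 in KO-2. Its folds were 4.67 in WT-1 and 4.13 in WT-2. Tyrobp, Nkg7, Klrg1 and Gzma are also used by natural killer cells, whose own list had 3 gene-end regions in all, too few to compare. Tbx21 and Fasl had no WT-only gene-end region, and a peak in every library at their starts. The start of Ifng had no peak in KO-1 and a fold of 3.17 in KO-2, against 3.02 in WT-1 and 2.35 in WT-2. Without KO-2 the WT-only count of the Th1 list was 13 in place of 6. With the 20000 strongest peaks of each library it was 1, beside 2 KO-only regions, against 16 and 0 for the B cell list.

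Of the inhibitory receptor and exhaustion genes, Tox and Ctla4 held WT-only gene-end regions, 2 of 30 (6.67%), near the 4.52% of all gene-end regions. At Tox the region covered an end of the gene, whose strand was not given (chromosome 4, 6990165 to 6991572), without a KO peak, and had WT-1 and WT-2 folds of 6.57 and 7.12, at the 72.8 and 76.9 percentiles. Its width of 1408 bp was above the 548 bp of the third quartile of the 646 regions. Of 51 regions at Tox or within 5 kb of it, this was the sole WT-only one and 6 were KO-only. The Ctla4 region lay outside the far end of the gene, with folds of 5.21 and 4.10 in WT-1 and WT-2, while the start of Ctla4 was open in every library. Among genes for the proteins that were sorted on, Pdcd1, Lag3 and Entpd1 held none of the 646 regions and had a gene-end region with a peak in every library. The region counted for Entpd1 was shared with Tctn3, whose start was the nearest gene end, 40 bp from its midpoint. Il6ra, of the follicular helper list, had folds of 2.94 and 2.73 in WT-1 and WT-2 near its far end, and Sdc1, of the plasma cell list, 2.34 and 2.65 near its start. The starts of both were open in every library.

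The B cell, shared signalling, MHC class II and myeloid lists together gave 39 of the 646 regions (6.04%). They held 0 KO-only regions and 34 regions with a peak in every library. The KO-only count was 2 without KO-1, 3 without KO-2, 1 without WT-1 and 1 without WT-2. It was also 1 at a deposited −log10 q of at least 5 and 1 with a midpoint within 2 kb. Among the 33 WT-only regions at percentile 75 or above in both WT lists by fold, 9 (27.3%) were at these genes. Other gene-end regions of the same strength in WT-1 and WT-2 gave 16 of 7386 (0.217%). Below percentile 25 in the weaker WT list the counts were 12 of 259 (4.63%) and 3 of 441 (0.68%), and the shares between these classes were 1.29% and 0.229% (25 to 50) and 12.3% and 1.37% (50 to 75). In each class the share at these genes was higher among WT-only regions, without a steady rise with strength. The lists of T cell genes apart from Th1 gave 3 of the 646. Most of the 646, 597 regions, were at no listed gene.

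Of the 15 with the highest lower WT percentile, 4 were at listed genes (Ms4a1, Fcer2a, Tlr4 and Cd79a). Gapt, an adaptor of B cells and myeloid cells, had folds of 11.3 and 9.68 in WT-1 and WT-2 at its start, and this was the sole region within 5 kb of the gene. Ctsh, a lysosomal protease, had folds of 9.53 and 8.93. Gm14548 had 10.4 and 11.4 at its start on chromosome 7, with the nearest KO peak 128209 bp away. Directly below these 15 came the start of Sema5a (8.51 and 8.01), a gene of no list. Further down stood the starts of Lilra6 (8.10 and 8.62) and of Fcgr2b, the inhibitory Fc receptor of B cells and myeloid cells (8.06 and 8.86). The start of Slc2a13, a gene of no list, was of like strength (8.06 and 8.61). Sema5a, Lilra6, Fcgr2b and Slc2a13 were named after their values were seen. By the rule that chose them, none of these regions had a KO peak.

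Others among the 15 were likewise at genes of no list. Mthfd1, an enzyme of folate metabolism, had folds of 10.5 and 10.9 in WT-1 and WT-2 near its far end, and Rfc3, a subunit of replication factor C, had 9.64 and 9.73 near its far end. Chst15 and Hs3st1, sulfotransferases of glycosaminoglycans, had 9.59 and 12.6 and 11.1 and 9.56 near their starts. Nr3c1, the glucocorticoid receptor, had 9.20 and 11.2, and Slc17a4, a solute carrier, 8.28 and 9.13. Gfi1b, a transcriptional repressor that acts in the erythroid and megakaryocyte lineages, had 8.96 and 8.38. The Gfi1b region lay 93 bp from a KO peak. For Mthfd1 and Rfc3, the start of the gene was therefore not the site of the WT-only region. The widest regions were at Adgrl2 (1863 bp), Zc3h12c (1631 bp) and Tlr4 (1444 bp).

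At 33 genes there were 2 WT-only end regions, the largest number at any gene. Both were at the same end for 23 genes, and 10 genes, Ebf1, Spib, H2-Eb1, Mgll and Prr5 among them, had 1 at each end. Siglecg, an inhibitory sialic acid receptor of B cells, had 2 at its start, with folds of 4.49 and 4.25 and of 7.46 and 8.55 in WT-1 and WT-2. Pairs also stood at further genes outside the lists, such as Edn1 (endothelin), Wnt7a, Meis1 and Thbd (thrombomodulin), with folds from 2.69 to 5.59. Htra4 and Plekha2, neighbouring genes, shared the same pair.

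The peaks were modest in strength. Median fold was 3.36 in WT-1 (quartiles 2.88 and 4.42, n = 646) and 3.35 in WT-2 (2.83 and 4.52), against list medians of 4.13 and 3.93 over all peaks. Median percentiles of fold were 36.7 in WT-1 and 39.4 in WT-2, against 43.3 and 46.9 for the 7921 WT-only regions away from gene ends and 88.9 and 89.8 for the 9674 gene-end regions with a peak in every library. Median region width was 370.0 bp, against 373 bp and 1130 bp in those sets. Strength and width thus resembled those of WT-only regions elsewhere and not those of commonly open gene ends. Both folds were above the median fold of the KO-1 list in 197 regions and of the KO-2 list in 140. Of the 10954 gene-end regions with a peak in both WT libraries, 37% were WT-only where the lower WT percentile was below 25 and 0.445% where it was 75 or above.

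**Figure D3:**
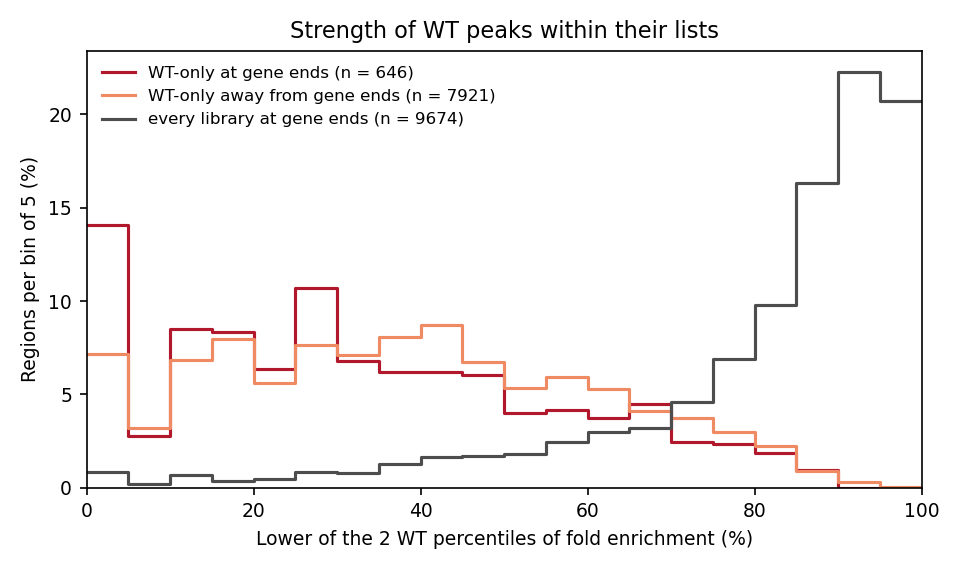
Distribution of the lower of the WT-1 and WT-2 percentiles of fold enrichment (x axis; y axis, percent of regions per bin of 5) for WT-only regions at gene ends, WT-only regions elsewhere and gene-end regions with a peak in every library. Of the WT-only gene-end regions 33 of 646 (5.11%) reach percentile 75, against 76% of those open in every library.

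A region joins overlapping peaks of WT-1 and WT-2, so their summits lie close by the way the regions were chosen. In 601 of the 646 regions each WT library had a single peak, and the summits of WT-1 and WT-2 were within 100 bp of each other in 564 (87.3%), with a median distance of 22 bp. Over the 646 regions the percentiles of WT-1 and WT-2 had a Pearson correlation of 0.775 and a Spearman correlation of 0.74. This is across regions, which share libraries and local base composition and are not independent.

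Where the strand of the gene was given, 319 regions lay nearest to a gene start and 171 to the far end, so 65.1% were at starts. The strand of 156 was not given in the table of promoters used here. For KO-only gene-end regions the share at starts was 64.6%, for gene-end regions of other patterns 64.7%, and for those with a peak in every library 93.9%. A lower share at starts was therefore common to gene-end regions not open in every library. The median distance to the start was 290.0 bp, against 581 bp for KO-only and 152 bp for commonly open regions. Within 250 bp of the start lay 48.3% of the 319, against 35.8% of 53 KO-only regions, 33.7% of 1937 regions of other patterns and 70.4% of 7335 commonly open regions. Of the 319, 140 were upstream and 179 downstream of the start by their midpoints. No chromosome stood far apart, with WT-only shares of gene-end regions from 3.06% on chromosome 4 to 6.79% on chromosome 6.

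**Figure D4:**
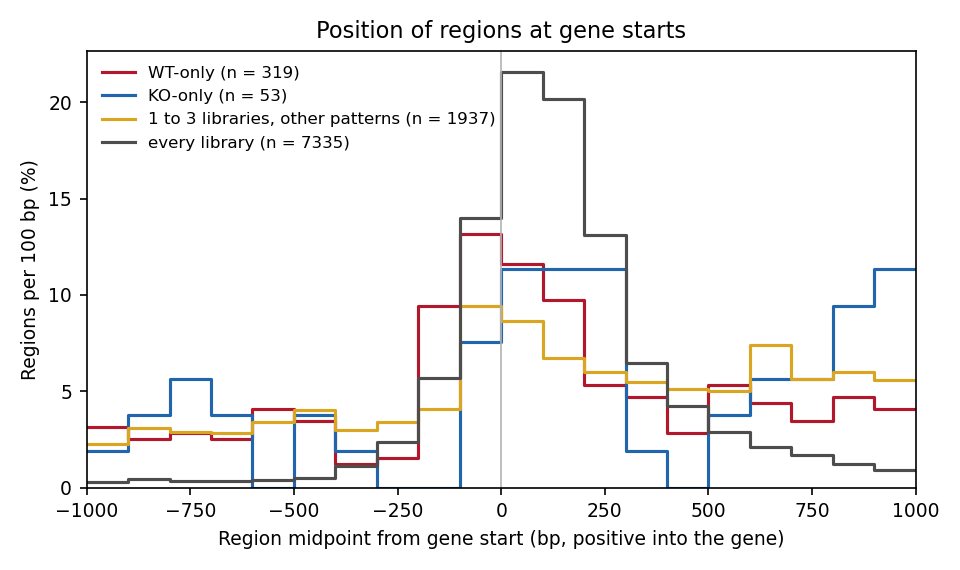
Midpoints of gene-end regions nearest to a gene start (x axis, bp from the start, positive into the gene; y axis, percent of regions per 100 bp) for WT-only, KO-only, other patterns and every library. WT-only regions gather near the start, with 48.3% within 250 bp, less than the 70.4% of regions with a peak in every library.

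Not all of these gene ends were closed in the KO libraries. At the same end, within 1 kb, 113 regions (17.5%) had a neighbouring region with a peak in every library, and 153 (23.7%) had 1 with any KO peak, so 493 regions had no KO region at their gene end. A KO peak lay within 500 bp of 141 regions (21.8%), against 9.43% of the WT-only regions away from gene ends. For the regions at B cell genes these numbers were smaller: 0 of 20 had a KO peak within 500 bp, and 1 of 20, at Ebf1, had a KO region at the same end. At starts, 23.8% had a commonly open region at the same end, and at far ends 4.68%.

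The 1 kb limit cut through continuous distances. The last regions inside it were at Hmcn2 (999 bp), Tspoap1 (997 bp) and P2ry13 (996 bp), with WT folds from 1.73 to 4.67. The first outside were a further WT-only region before Cd79a (1004 bp), and regions at H2bc4 (1006 bp) and Scn4a (1008 bp), with WT folds from 2.15 to 4.66.

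Promoter windows under WT-only regions were poorer in CpG than those under commonly open regions. A RefSeq window of 300 bases was covered at least in part by 164 of the 646 regions. Their median ratio of observed over expected CpG was 0.495 (quartiles 0.289 and 0.756), against 0.56 under 22 KO-only regions, 0.595 under 706 regions of other patterns and 0.804 under 6957 commonly open regions. Over all 21044 windows it was 0.574. Ratios above 0.6 were found in 37.8%, 36.4%, 49.6%, 81.7% and 48.1% of these sets, taken in the same order. The low ratio was therefore not particular to WT-only regions. Median GC content was 57.8%, against 58.7%, 60.7%, 62.3% and 56.7%.

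**Figure D5:**
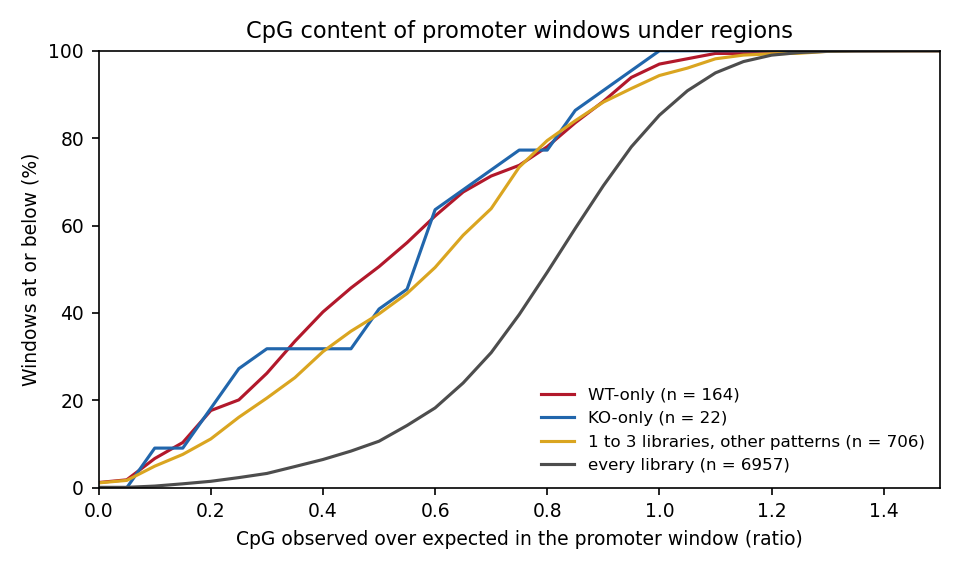
Cumulative share of promoter windows (y axis, percent) by ratio of observed over expected CpG (x axis) under WT-only, KO-only, other and commonly open gene-end regions. The WT-only curve, with a median of 0.495, lies with those of KO-only and other regions and left of that of commonly open regions, with a median of 0.804.

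Short motifs were counted in these windows on both strands. GAGGAA (PU.1) was present in 35.4% of the 164 windows, against 36.4% of the 22 under KO-only regions, 26.5% under regions of other patterns, 25% under commonly open regions and 27.2% of all windows. GAAANNGAA (IRF) was in 11.6%, against 4.55%, 6.09%, 6.74% and 8.09% of these sets in the same order. TGTGGT (RUNX) was in 17.1%, against 27.3%, 14.3%, 11.6% and 14.8%, and TGANTCA (AP-1) in 5.49%, against 22.7%, 7.65%, 3.79% and 7.04%. CCCNNGGG (EBF) was in 20.7%, against 18.2%, 22.4%, 18.5% and 15.8%, and ATTTGCAT (OCT) in 4 of the 164. CANNTG (the E-box) was in 73.8%, against 77.3%, 66%, 61.2% and 69%. TATAAA was in 9.76% and CCAAT in 31.1%, against 12.7% and 38.5% of all windows. Base composition also differed between these sets, and no difference in motif share was tested.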

How the data were processed

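Each of the 4 libraries had its own deposited peak list of 10 columns without a header, so replicates were not pooled. Per the submitters' processing notes, the tools were MACS2, BWA, Picard, deepTools and SAMtools and the build was GRCm38 (mm10). The sources used here do not give versions, settings or the shift for the transposase. Fold enrichment, a ratio of a peak to its library's background, was taken as deposited. The authors' −log10 p and −log10 q rank peaks, and the deposited summit offset gives the peak's highest point. Numbers missing from the deposited peak names (1603 and 1681 for the KO libraries, 1758 and 1900 for the WT libraries) mean that an absent peak can be one left out of a list. Read depth is unknown, and no counting interval was set.

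Peaks sharing at least 1 bp were merged. A midpoint within 1 kb of either end of a protein-coding RefSeq interval (GRCm38.p6, 21627 genes) placed a region at a gene end. Where several genes qualified, the nearest end was described and all counted for lists. Strand and promoter sequence came from the RefSeq promoter table and were given for 79.9% of genes. Named were Tox, up to 8 regions a list (17 lists, 252 genes), the 15 strongest, genes with 2 or more regions, the 3 widest and those beside the limit. The members and lists were chosen with earlier results of these data known. Some list genes are counted but not reported here by name. No test across libraries was made, and p-values are not given. The functions were tested on simulated data. Python 3.11, pandas 2.3.3.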

Additional observations from a re-analysis of the deposited data

How the results depend on the processing

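Against 646 regions, the 20000 strongest peaks of each list gave 237, WT peaks with a −log10 q of at least 5 against any KO peak (the asymmetric threshold) 318, a midpoint within 500 bp 367, one within 2 kb 1085 and a region across the gene end itself 226. Leaving out each library gave 769 to 1573 regions, since neither its peak nor its absence was then required. The B cell share of 3.1% was 6.75% with the 20000 strongest peaks and 5.35% with the asymmetric threshold, and 1.65% to 2.6% with a library left out. Over the 14 settings the myeloid share (0.929%) lay between 0.557% and 1.77% and the pan T cell share (0%) was at most 0.209%; with so few regions neither range shows stability.

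The median width of 370.0 bp was 787 bp with the 20000 strongest peaks, 464.5 bp with the asymmetric threshold, 504 bp and 607 bp at a −log10 q of at least 5 and 10, 402 bp where KO peaks within 500 bp counted as present, 401 bp within 500 bp of a gene end, 504.5 bp across it, and 213 to 391 bp with a library left out. The median percentile of fold (38.0, mean of the WT lists) was 75.4, 55.2, 53.8, 65.8, 43.5, 41.0 and 47.3 in the same order of settings, and 23.2 to 41.1 with a library left out. The share at gene starts (65.1%) was 75.1% with the 20000 strongest peaks, 70.8% and 71% at a −log10 q of at least 5 and 10, 59.3% where KO peaks within 500 bp counted, 71.3% within 500 bp, 60.3% within 2 kb, 88.9% across the gene end, and 64.8% to 70.2% with a library left out. Higher percentiles follow from stricter thresholds by construction; the cause of the other shifts was not tested. No paired analysis was possible because the results come from counts of peaks and no test was fitted. Without read numbers, a weak site in a KO library cannot be told from a closed one.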
